A study of Drosophila melanogaster with 63 samples.

Results

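The transcript profile of wild type Drosophila melanogaster embryos was compared between 2 h and 3 h after egg laying (AEL). The comparison takes every array labelled wild type at those times, 3 at 2 h and 3 at 3 h, which is 6 of the 63 arrays of the series. The series as a whole followed wild type, even skipped (eve) mutant and fushi tarazu (ftz) mutant embryos through embryogenesis. On each array the Cy3 channel held a sample's total RNA and the Cy5 channel a shared reference from embryos of 0 to 22 h, and a value is a log ratio of these channels. Neither its base nor its side is stated: it is read here as log2 of sample over reference, which is likely, and every rise and fall below rests on that reading. The wild type strain is not named in the labels, and the mutants, used below as a repeat of the same step, were kept over GFP balancer chromosomes and genotyped, with 3 arrays each at 2 h and at 3 h. How many embryos were pooled for an array, and whether replicates came from separate collections, is not given in the sources used here, and the p-values therefore cover only array-to-array spread, with the number of arrays limiting the precision.

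In this interval the fly embryo passes from a syncytium, which lives largely on messages the mother loaded into the egg, to a cellularized blastoderm that starts gastrulation on its own transcripts. The maternal-to-zygotic transition combines decay of maternal messages with activation of the zygotic genome. A brief wave of zygotic genes builds the cell membranes and reads the axis coordinates, and lineage genes of ectoderm, mesoderm and nervous system follow. In bulk embryo RNA, fewer cells of a type and less RNA per cell cannot be told apart.

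Arrays of 1 time resembled each other more than arrays of the other time. Over the 12424 features, 9292 of them named genes, the 2 h arrays correlated with each other at r = 0.878 to 0.917 and the 3 h arrays at 0.808 to 0.842, while pairs across the times lay at 0.649 to 0.685. Genes of the early stage served to choose the side of the ratio, so their levels are no check of the time labels: the median of the measured blastoderm-specific and boundary genes was 1.14 at 2 h and -0.37 at 3 h, that of the cellularization genes 0.60 and -0.43. Muscle genes lay at -2.01 (median, 2 h) and -1.53 (3 h), far below the reference at both times. The arrays were not spread evenly over slides: per the titles, the 2 h arrays came from slides 70, 71 and 9 and the 3 h arrays from slides 8, 7 and 6, so only the array of slide 9 lies in the same run of slide numbers as the 3 h arrays. Array values below are given in that order. Slide numbers recur in the series, with 7, 8 and 9 also given to later ftz arrays, so a number need not identify a batch. A difference is 3 h minus 2 h on the log2 scale, ± SE, with 3 arrays at each time.

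Between 2 h and 3 h, 1516 of 12424 features (12.2%) passed an adjusted p of 0.05. Of these 677 were higher at 3 h (5.45%) and 839 were lower (6.75%). Counts for gene lists below are to be read beside these shares. The lists were chosen with earlier results of these data known, so a list's share describes its members and is no independent support. The falls were the larger ones: 125 called features fell at least 2-fold and 34 rose at least 2-fold, and 12 fell at least 4-fold against 0 that rose as much. The median called rise was 0.52 and the median called fall -0.61. Without reference to any test, all 3 arrays of 3 h lay above all 3 of 2 h for 2283 features (18.4%) and below them for 2044 (16.5%). Restricted to slides 6 to 9, with 3 arrays of 3 h and 1 of 2 h that is assumed to vary like the other groups, the model called 452 features (176 higher and 276 lower), and 596 with the run of slides as a block on the 6 arrays. In both fits the difference rests on the 1 array of 2 h from slide 9. They gave the same differences and are not separate checks. Only wild type arrays were restricted to slides 6 to 9, and all other groups stayed in that model. That comparison reuses 4 of the 6 arrays, and slide run and time cannot be fully told apart.

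**Figure D1:**
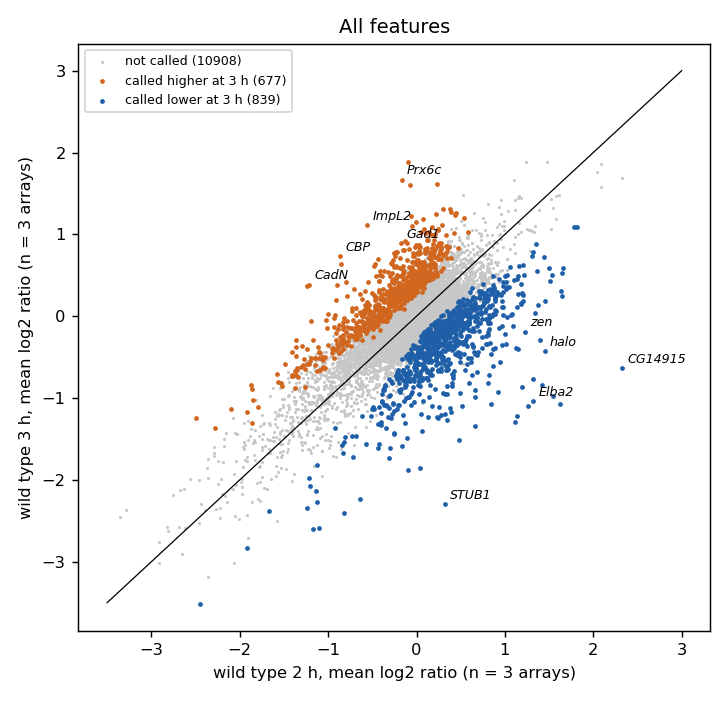
Mean log2 ratio of each of the 12424 features in wild type at 2 h (horizontal) and at 3 h (vertical), 3 arrays each, with the line of equal values. The 839 called lower (blue) reach further from the line than the 677 called higher (orange).

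Genes of the blastoderm were among the large falls. Their direction is no independent result, since these and the cellularization genes served to choose the side of the ratio. Of 8 measured blastoderm-specific and boundary genes, 5 fell and 0 rose, with a median difference of -1.16 against 0.02 over all features. Elba2 and Elba3 encode subunits of a chromatin boundary factor that acts in the early embryo. Elba2 read 1.11, 1.32 and 1.53 at 2 h and -0.99, -0.98 and -1.14 at 3 h. It was well above the reference on every 2 h array and well below it on every 3 h array, a difference of -2.36 ± 0.25 (adjusted p = 1.58e-09), and -2.57 within slides 6 to 9. Elba3 went from 1.02, 1.195 and 1.199 to -1.66, -1.04 and -0.97, a difference of -2.36 ± 0.25 (adjusted p = 2.41e-09). The related gene insv, which codes for a DNA-binding BEN-domain protein, fell much less, by 0.69, and was still above the reference at 3 h (0.33, 0.37 and 0.64). Its call was lost on leaving out any 1 of 5 of the arrays. Nin, the blastoderm-specific Bsg25D whose product is a ninein-like centrosomal protein, fell from 0.75, 0.87 and 0.82 to -0.75, -0.78 and -0.91, a difference of -1.62 ± 0.19 (adjusted p = 3.02e-08). The other 3 members, E(bx), sala and spo, were not called.

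Genes that build the first cell membranes fell with them. Of 7 measured cellularization genes 4 fell and 0 rose, with a median of -0.69 (-0.37 without the 2 h array of slide 9). Sry-alpha, which organizes actin at the invaginating membranes, read 1.31, 1.21 and 1.44 at 2 h and -0.71, -0.77 and -0.84 at 3 h, a difference of -2.09 ± 0.35 (adjusted p = 2.11e-05). bnk (bottleneck), which times the constriction of the actomyosin ring, read 0.31, 1.12 and 1.12 and then -1.08, -1.02 and -1.10. The groups were far apart even though the array of slide 70 was lower than the other two at 2 h (difference -1.92 ± 0.21, adjusted p = 4.11e-09). halo, a regulator of lipid droplet transport that is on both of these lists, fell from 1.39, 1.50 and 1.46 to -0.55, -0.23 and -0.50 (-1.87 ± 0.22, adjusted p = 3.60e-08). nullo, needed for stable membrane furrows, varied most among the 2 h arrays, with 0.01, 0.53 and 1.24 against -0.19, 0.01 and -0.11. The lowest 2 h array was within 0.01 of the highest 3 h array, and the call of nullo (-0.69 ± 0.19, adjusted p = 0.0081) was lost in the fit on the 6 arrays alone (adjusted p = 0.133) and without the 2 h array of slide 9 (-0.37, adjusted p = 0.216). The general cytoskeletal members dia and Abl and the gene Neurochondrin were not called.

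Several of the 15 largest falls are of genes on none of the lists. The uncharacterized gene CG14915 had the largest: it read 2.78, 2.13 and 2.06 at 2 h and -0.81, -0.60 and -0.49 at 3 h (-2.96 ± 0.49, adjusted p = 2.02e-05). STUB1, which encodes the ubiquitin ligase CHIP, went from 0.27, 0.43 and 0.25 to -2.35, -2.95 and -1.59 (-2.62 ± 0.32, adjusted p = 7.00e-08). term, whose zinc-finger product is made in the blastoderm, went from 1.32, 1.40 and 1.55 to -0.53, -1.21 and -0.79 (-2.27 ± 0.35, adjusted p = 7.64e-06). Non-overlap of the times was a condition for choosing these genes. bard fell by 2.52, and the uncharacterized genes CG15876, CG7271, CG8507 and CG13000 fell by 2.35, 2.06, 2.00 and 1.68. With the run of slides as a block CG8507 was no longer called (adjusted p = 0.0622).

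**Figure D2:**
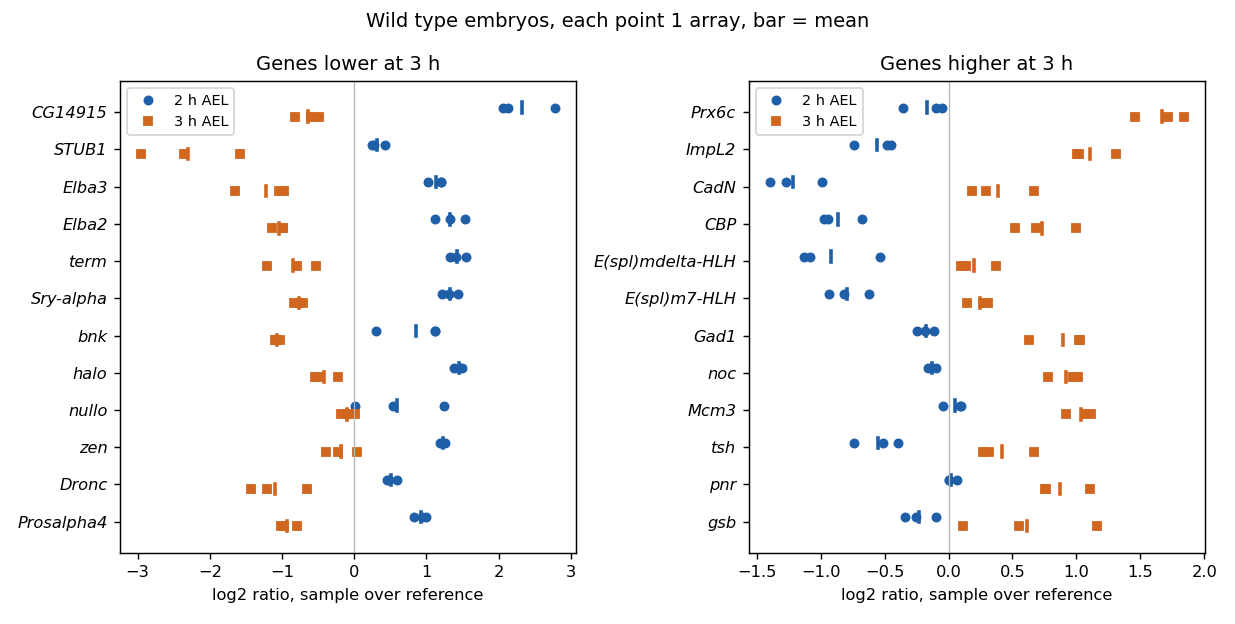
Log2 ratio on each of the 6 wild type arrays for 12 genes that were lower at 3 h (left) and 12 that were higher (right), with 2 h as blue circles, 3 h as orange squares and the group mean as a bar. The arrays of the times do not overlap for these genes, a condition of choice for the largest changes, with nullo the closest to doing so.

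Of 29 measured maternal genes 8 fell, 1 rose and 20 did not pass, and the median difference was -0.36. It turned to 0.11 when arrays were centred on ribosomal protein and proteasome genes. That centring, here and below, raised every difference by the same amount, and the median of all features went from 0.0178 to 0.485. The array medians of the list lay between -0.45 and -0.24 at 2 h and between -0.80 and -0.61 at 3 h. The count was 5 lower and 0 higher within slides 6 to 9, and 4 lower without the 3 h array of slide 8. The deepest fall was that of Toll (Tl), the receptor that sets the dorsoventral axis, from 0.53, 0.69 and 0.75 to -0.85, -1.02 and -1.09 (-1.65 ± 0.23, adjusted p = 1.19e-06). plu, part of the PNG kinase complex that runs the first nuclear cycles, fell from 0.43, 0.65 and 0.69 to -0.73, -0.84 and -0.89 (-1.41 ± 0.26, adjusted p = 0.000113). Both were above the reference on all 2 h arrays and below it on all 3 h arrays. BicD, an adaptor for dynein cargo, fell by 1.19, the piRNA helicase gene spn-E by 1.11, ea, a protease upstream of Tl, by 0.58 and the Piwi-family gene aub by 0.53. The call of spn-E was lost without the 3 h array of slide 8, and that of aub without any 1 of 3 arrays. tud, a scaffold of germ plasm, was the member that rose, from -0.78, -0.88 and -0.80 to -0.31, -0.23 and -0.35 (0.52 ± 0.13, adjusted p = 0.00315).

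The gene of the cell cycle phosphatase twe narrowly missed the threshold: it read -0.01, 0.08 and 0.12 at 2 h and -1.67, -0.67 and -0.83 at 3 h, a difference of -1.12 ± 0.40 (adjusted p = 0.0537). Classical localized messages were not called either. osk, the germ plasm organizer, differed by -0.02 ± 0.28 with overlapping arrays, exu, which helps to localize bicoid messages, by -0.25 ± 0.37, and stau by 0.34 ± 0.17. mael, a germline piRNA factor on the list of germline genes, fell from 0.48, 0.68 and 0.46 to -0.79, -0.47 and -0.13 (-1.01 ± 0.28, adjusted p = 0.0122), a call lost without the 2 h array of slide 71 or the 3 h array of slide 8.

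Factors that degrade maternal RNA changed in both directions, 2 higher and 3 lower of 12 measured. Edc3, an enhancer of decapping, fell most, from 0.24, 0.40 and 0.32 to -0.96, -1.07 and -1.55 (-1.51 ± 0.16, adjusted p = 1.58e-09). smg (Smaug), the RNA-binding protein that recruits deadenylase to maternal messages, read -1.33, -1.33 and -0.75 and then -2.32, -1.75 and -2.33 (-0.995 ± 0.28, adjusted p = 0.0105), and me31B, a DEAD-box partner of decapping, fell by 0.79 (adjusted p = 0.0487). Not3, of the CCR4-NOT deadenylase, rose by 0.50 and Upf1, of nonsense-mediated decay, by 0.38. The counts of this list were unstable: leaving out 1 array gave 0 to 3 rises and 1 to 2 falls, and Not3, Upf1 and smg each lost their call without any 1 of 3 of the arrays. me31B lost its call without any 1 of 5 arrays, and under cyclic loess and under trend and robust moderation.

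Of 20 measured proteasome genes 11 fell and 0 rose (55% called, against 12.2% of all features), with a median of -0.63. Its array medians did not overlap, at 0.50 to 0.60 at 2 h and -0.26 to -0.18 at 3 h. The subunits were then split by place in the complex, a further choice made after the values were seen. In this split 10 of 11 measured genes of the 20S core, the proteolytic barrel, fell with a median of -1.12. Of 13 measured genes of the 19S regulator, which recognizes and unfolds substrates, 1 fell and 0 rose, with a median of 0.16. Prosalpha4 read 0.94, 0.83 and 0.996 at 2 h and -0.98, -0.79 and -1.01 at 3 h, a difference of -1.85 ± 0.23 (adjusted p = 7.00e-08). Prosalpha2 went from 0.76, 1.06 and 0.80 to -0.36, -0.46 and -0.39 (-1.27 ± 0.21), and Prosbeta5, one of the catalytic subunits, from 1.002, 0.95 and 0.55 to -0.33, -0.40 and -0.25 (-1.16 ± 0.20, adjusted p = 5.52e-05). Prosalpha6 fell by 1.15 and Prosbeta7 by 0.67, the latter not called without the 2 h array of slide 71. The 2 h arrays lay above the 3 h arrays for all 11 core genes, against 16.5% of all features. Among them was Prosbeta2, the core gene that was not called (-0.23 ± 0.19). In the regulator the ATPase gene Rpt4 fell by 0.58, Rpn12 differed by -0.60 ± 0.22 (adjusted p = 0.0625) and Rpn1 by 0.47 ± 0.21 (adjusted p = 0.136). The core genes are among those used for centring on the ribosomal and proteasome lists, so that centring cannot check their fall. The count of core genes called lower was 5 within slides 6 to 9 and 8 when arrays were centred on the ribosomal and proteasome lists.

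Core metabolism gave smaller counts in the same direction, in families also chosen after the values were seen. Of 8 measured genes on a list of tricarboxylic acid cycle and related enzymes 4 fell and 0 rose. The members mAcon1, Idh3a, Idh3b and SdhB were not called. Mdh1, malate dehydrogenase, went from -0.12, -0.19 and -0.18 to -1.35, -1.51 and -1.89 (-1.42 ± 0.28, adjusted p = 0.000291), and Scsalpha1, a succinyl-CoA synthetase subunit, fell by 1.11, ScsbetaA by 0.90 and Idh by 0.84. The count was 2 lower within slides 6 to 9, and 2 lower and 2 higher when arrays were centred on the ribosomal and proteasome lists. The glycolytic enzyme gene Eno fell by 1.15 but was not called when the 2 h array of slide 9 was left out, and the other 8 measured glycolytic genes were not called. Of 15 measured oxidative phosphorylation genes only ATPsynC was called (fell by 0.70), a call lost on leaving out any 1 of 4 arrays, against 7 lower at an unadjusted p of 0.05. Of 8 cytosolic ribosomal protein genes 0 were called in the limma model, 0 at the unadjusted p and 0 in the fit on the 6 arrays, and of 10 heat shock and chaperone genes 0, 3 and 2.

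**Figure D3:**
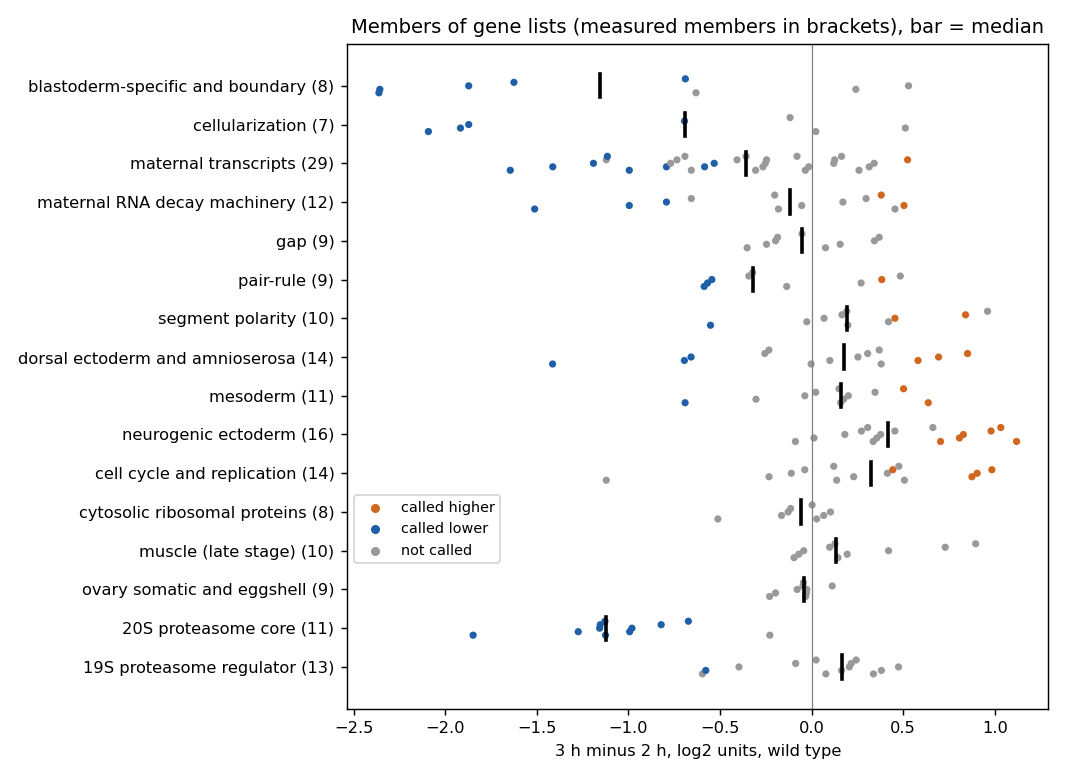
Difference of 3 h minus 2 h (horizontal, log2 units) for each measured member of 16 gene lists and families, with the median as a bar and calls in colour. Blastoderm, cellularization and 20S core genes lie to the left, neurogenic and replication genes mostly to the right, and ribosomal protein and eggshell genes around 0.

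Of 14 measured cell cycle and replication genes 4 rose and 0 fell, all 4 of them subunits of the Mcm helicase that unwinds DNA at the fork. Mcm3 read 0.09, -0.04 and 0.10 at 2 h and 1.06, 1.11 and 0.92 at 3 h, close to the reference before and well above it after (0.98 ± 0.15, adjusted p = 6.05e-06). Mcm2 rose by 0.90, Mcm5 by 0.88 and Mcm6 by 0.44, the last a call lost without any 1 of 3 arrays. Families assembled after the values were seen gave 5 of 6 Mcm genes higher (3 without the 2 h array of slide 71), 3 of 5 origin recognition genes, and 5 of 8 replicative polymerase and RPA genes (3 without any 1 of 5 of the arrays). In slides 6 to 9 alone these counts were 3, 1 and 3. PolA1, the catalytic subunit of the priming polymerase, went from 0.28, 0.08 and -0.13 to 1.03, 1.104 and 1.08 (0.99 ± 0.16, adjusted p = 1.94e-05), and PolE2 from 0.08, -0.09 and -0.06 to 0.93, 0.78 and 0.81 (0.86 ± 0.10, adjusted p = 1.59e-08). Both genes were separated without overlap, as were 18.4% of all features with 3 h above. PolA2 rose by 0.80 and the origin recognition gene Orc4 by 0.74. Mcm10 (-0.22 ± 0.26), CycE (-0.11 ± 0.17) and CycB (0.12 ± 0.30) were not called.

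Among segmentation genes, 3 pair-rule genes fell. Of the 9 measured gap genes 0 were called in the limma model, 1 passed an unadjusted p of 0.05 and 1 was called in the fit on the 6 arrays. hb differed by -0.35 ± 0.18, gt by -0.20 ± 0.11 and Kr by 0.37 ± 0.20. The 3 of 9 measured pair-rule genes that fell are homeobox regulators. prd went from 1.11, 1.08 and 0.84 to 0.30, 0.74 and 0.22 (-0.59 ± 0.15, adjusted p = 0.00694), ftz from 0.78, 0.85 and 0.84 to 0.19, 0.31 and 0.27 (-0.57 ± 0.15, adjusted p = 0.0073) and eve from 0.46, 0.35 and 0.71 to -0.08, -0.15 and 0.12 (-0.54 ± 0.16, adjusted p = 0.0173). Each was lower on every 3 h array than on any 2 h array, as were 16.5% of all features. The call of prd was lost without the 3 h array of slide 6, and that of eve without any 1 of 3 arrays. Ten-m, a teneurin, rose by 0.38, a call lost on leaving out any 1 of 4 arrays. Centring on the ribosomal and proteasome lists, whose result follows, raised every difference by the same amount. In slides 6 to 9 alone 0 of the 9 were called, and the list's median of -0.32 turned to 0.15 when arrays were centred on the ribosomal and proteasome lists.

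Segment polarity genes, which act after the pair-rule genes, had a median of 0.20 with 2 of 10 higher and 1 lower. gsb, a paired-domain regulator, rose from -0.34, -0.25 and -0.10 to 1.16, 0.11 and 0.55 (0.84 ± 0.21, adjusted p = 0.00382), with a wide spread at 3 h, and was not called without the 3 h array of slide 8. en (engrailed), which marks posterior compartments, rose from -0.03, 0.03 and -0.05 to 0.39, 0.52 and 0.41 (0.45 ± 0.14, adjusted p = 0.0209), a call lost without any 1 of 3 arrays and under cyclic loess. The Hedgehog transducer gene smo fell by 0.55, a call lost without any 1 of 5 arrays, and ci, its transcription factor, differed by 0.96 ± 0.35 without passing (adjusted p = 0.0669). The count in slides 6 to 9 alone was 0 of 10. tsh (teashirt), the trunk determinant on the homeotic list, rose from -0.40, -0.74 and -0.51 to 0.27, 0.32 and 0.66 (0.97 ± 0.22, adjusted p = 0.00205).

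Genes of the dorsal ectoderm and amnioserosa changed in both directions, 3 higher and 3 lower of 14 measured. zen, the homeobox gene that first specifies the amnioserosa, read 1.26, 1.22 and 1.19 at 2 h and -0.39, 0.04 and -0.22 at 3 h (-1.41 ± 0.27, adjusted p = 0.000196). tld, a protease that frees BMP ligand, fell by 0.69 and the TNF-like gene egr by 0.66, a call lost without any 1 of 3 arrays and in the fit on the 6 arrays. pnr, a GATA factor of the dorsal ectoderm, rose from 0.00, 0.06 and 0.00 to 0.76, 1.11 and 0.75 (0.85 ± 0.13, adjusted p = 7.46e-06). Its cofactor gene ush rose by 0.58 and peb (hindsight), a zinc-finger gene of the amnioserosa, by 0.69. All 6 separated the times without overlap, zen, tld and egr above at 2 h, pnr, ush and peb above at 3 h. Over all features 16.5% lay above at 2 h and 18.4% above at 3 h without overlap. In the slide 6 to 9 comparison 2 were called higher and 1 lower.

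In the mesoderm list 2 of 11 genes rose, eya by 0.50 and Mes2 by 0.64, and the transporter gene Mdr49 fell by 0.69 (not called without the array of slide 70 or of slide 8), while the determinants twi (0.20 ± 0.16) and sna (-0.04 ± 0.16) were not called. That list had 27.3% called, against 12.2% of all features. In slides 6 to 9 alone 0 of the 11 were called. Of 10 endoderm and hindgut genes (20% called) bowl rose by 0.59 and GATAe by 0.51, and neither call held without the 2 h array of slide 9. Of 15 gastrulation and morphogenesis genes 3 fell and 0 rose (20% called): Tl, cta, which encodes the G protein subunit for apical constriction (fell by 0.75), and aPKC, of apical polarity (fell by 0.63, a call lost without any 1 of 4 arrays). The gastrulation list gave 3 higher and 5 lower in the fit on the 18 arrays of 2 h and 3 h. It gave 8 higher and 1 lower when arrays were centred on the ribosomal and proteasome lists, a setting that raised every difference. Of 7 zygotic genome activators 0 were called, 0 passed the unadjusted p and 1 was called in the fit on the 6 arrays.

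Of 16 measured genes of the neurogenic ectoderm 6 rose and 0 fell, with a median of 0.42. All 6 belong to the Enhancer of split complex, targets of Notch signalling. E(spl)m7-HLH, a bHLH repressor, went from -0.82, -0.62 and -0.94 to 0.27, 0.15 and 0.31 (1.03 ± 0.19, adjusted p = 8.68e-05). E(spl)mdelta-HLH went from -1.08, -1.13 and -0.53 to 0.37, 0.10 and 0.14 (1.12 ± 0.18, adjusted p = 1.89e-05), and E(spl)m5-HLH, E(spl)mbeta-HLH, E(spl)malpha-BFM and E(spl)m4-BFM rose by 0.81, 0.70, 0.98 and 0.83. The call of E(spl)mbeta-HLH was lost without any 1 of 4 arrays. E(spl)m3-HLH, by contrast, differed by 0.18 ± 0.17. The counts depended on the scaling: under cyclic loess the count was 2 with a list median of 0.21, and the difference of E(spl)m5-HLH was 0.30 (adjusted p = 0.302). In slides 6 to 9 alone 3 of the list were called.

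Among late neuronal genes CadN, N-cadherin, rose from -1.40, -1.27 and -0.99 to 0.18, 0.67 and 0.30 (1.60 ± 0.21, adjusted p = 2.21e-07). elav, the pan-neuronal RNA-binding protein, read -0.39, -0.20 and -0.06 at 2 h and 0.13, 0.17 and 2.06 at 3 h. Its difference of 1.003 ± 0.29 (adjusted p = 0.0139) came to 0.37 (adjusted p = 0.459) without the 3 h array of slide 6. The other 5 measured genes of that list were not called.

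Several of the 15 largest rises of named genes were of genes on none of the lists. Prx6c, a peroxiredoxin, rose from -0.05, -0.10 and -0.36 to 1.46, 1.84 and 1.71 (1.84 ± 0.20, adjusted p = 4.84e-09). ImpL2, a secreted insulin-binding protein, rose from -0.48, -0.45 and -0.74 to 1.004, 1.31 and 1.02 (1.67 ± 0.22, adjusted p = 1.93e-07), and CBP, in this nomenclature a calcium-binding protein and not the co-activator nejire, from -0.68, -0.94 and -0.98 to 0.52, 0.99 and 0.69 (1.60 ± 0.20, adjusted p = 1.19e-07). No 3 h array of these genes came near a 2 h array, and non-overlap was a condition for choosing them. Gad1, glutamate decarboxylase, rose from -0.18, -0.11 and -0.24 to 0.63, 1.02 and 1.03 (1.07 ± 0.11, adjusted p = 9.10e-10), and noc, a zinc-finger gene, from -0.14, -0.10 and -0.16 to 0.78, 0.97 and 1.01 (1.05 ± 0.18, adjusted p = 3.53e-05). The gap junction gene ogre rose by 1.22, the amino acid transporter gene path by 1.09, the glycosyltransferase gene Ugt37D1 by 1.07, sle by 1.03, frac by 1.03 and CG7102 by 1.12. EAChm (1.24 ± 0.43, adjusted p = 0.0481) had 2 h arrays ranging from -3.32 to -1.99, and its call was lost without any 1 of 4 arrays.

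Of 6 measured cell death genes (16.7% called, against 12.2% of all features), Dronc, the initiator caspase, fell, from 0.45, 0.60 and 0.48 to -1.44, -0.66 and -1.21 (-1.61 ± 0.17, adjusted p = 1.42e-09). The other 5 were not called. Markers of what the collections could also have held gave few calls. Of 10 muscle, 10 trachea and cuticle and 9 ovary and eggshell genes, 0 were called in the limma model (2, 3 and 0 passed the unadjusted p, and 0, 2 and 0 were called in the fit on the 6 arrays), and the array medians of these lists overlapped between the times (muscle -2.17 to -1.77 at 2 h and -1.96 to -1.33 at 3 h, eggshell 0.01 to 0.14 and -0.08 to 0.04). Of 9 measured blood and fat body genes 2 fell and 0 rose (22.2% called, against 12.2% of all features), while the list's median difference was 0.19. Lsp2 fell by 0.72 and Fbp1 by 0.40, both with overlapping arrays and neither called in the fit on the 6 arrays, which called 2 others higher: Lsp2 read 0.83, 1.91 and 1.58 at 2 h and 1.51, 0.33 and 0.32 at 3 h. Fbp1 was 0.07 higher, and not called, when arrays were centred on the ribosomal and proteasome lists, a setting that raised every difference. Of 8 sex determination and dosage genes 1 rose (12.5% called, near the 12.2% of all features).

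The later wild type arrays, which entered the model's estimate of spread but not the difference between 2 h and 3 h, show the levels that followed. Elba2 was at -1.04 ± 0.09 (SD, n = 3) at 3 h, within the spread of that at 6 h (-1.15 ± 0.62) and at -2.12 ± 0.14 at 10 h, and zen at -0.19 ± 0.22, -0.90 ± 0.28 and -0.82 ± 0.29. The fall of Tl was followed by a return, from -0.99 ± 0.13 at 3 h to -0.16 ± 0.05 at 6 h and 0.45 ± 0.23 at 10 h, with no overlap in SD between these times. Gad1 was high at 3 h (0.89 ± 0.23) and back near its 2 h level (-0.18 ± 0.07) at 6 h (-0.10 ± 0.11), and stayed there at 10 h (-0.17 ± 0.09). Prx6c was at 1.67 ± 0.20 at 3 h and -0.10 ± 0.50 at 6 h, and higher again at 9 h (0.82 ± 0.08) and 10 h (0.58 ± 0.28). E(spl)m5-HLH went from 0.77 ± 0.08 at 3 h to 1.56 ± 0.16 at 6 h and 0.22 ± 0.31 at 10 h, and Mcm5 from 0.87 ± 0.08 to 1.05 ± 0.05 and -0.20 ± 0.36. These steps are a description, with no test.

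**Figure D4:**
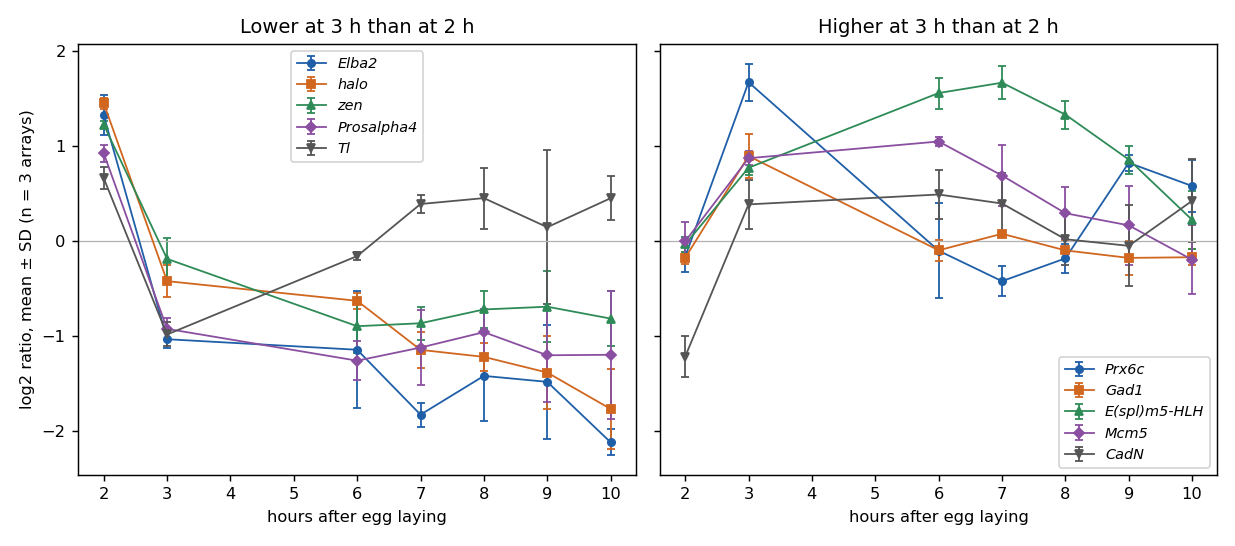
Mean log2 ratio ± SD of 3 wild type arrays at 2, 3, 6, 7, 8, 9 and 10 h after egg laying for 5 genes that were lower at 3 h than at 2 h (left) and 5 that were higher (right). Elba2, halo, zen and Prosalpha4 stay low after 3 h while Tl returns, and Gad1 and Prx6c are high at 3 h and low at 6 h, after which Prx6c is higher again at 9 h and 10 h.

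The same step was measured on arrays of ftz mutants, which share no array with wild type apart from the common reference. Their 2 h and 3 h arrays lie in 1 run of slide numbers (63 to 69), unlike the wild type ones. Over the 12424 features the steps correlated at r = 0.636. In ftz 1108 features (8.92%) were called, 586 higher (4.72%) and 522 lower (4.2%). Of the 677 wild type rises 584 (86.3%) had the same sign in ftz and 252 were called higher, while 3 were called lower. Of the 839 wild type falls 751 (89.5%) had the same sign, 308 were called lower and 1 higher. Of the 125 falls of at least 2-fold, 123 had the same sign and 93 were called lower (74.4%). The 34 rises of at least 2-fold were repeated less, with 29 of the same sign and 14 called higher (41.2%). Elba2 (-1.97), Elba3 (-2.28), bnk (-1.74), halo (-1.41), zen (-1.59), Dronc (-1.40), Mcm3 (0.99) and Prx6c (1.48) were called in the same direction in ftz. Other genes named above were not called in ftz, among them Tl (-0.64), prd (-0.18), eve (-0.04), en (0.06), ImpL2 (0.57) and PolA1 (0.40). Their differences from the wild type step were not called either. Of 10 measured segment polarity genes and 11 mesoderm genes 0 were called in ftz. Of the 20S core genes 4 were called lower in ftz, with a median of -0.36.

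The difference between the wild type and ftz steps was called for 51 features (0.41%), 27 with the greater value in wild type (0.217%) and 24 in ftz (0.193%). With the replicate block 2 features were called, and the count ran from 29 to 66 on leaving out 1 wild type array. Gad1 is one of the 51: it read -0.07 ± 0.07 (SD, n = 3) at 2 h and 0.00 ± 0.08 at 3 h in ftz, where wild type rose by 1.07 (difference of steps 1.004 ± 0.15 SE, adjusted p = 0.000376). CBP is another, with -0.68 ± 0.18 at 2 h and -0.68 ± 0.34 at 3 h in ftz (difference of steps 1.60 ± 0.29, adjusted p = 0.00493). Gss1, a glutathione synthase, rose in both, by 0.43 in wild type (not called without the 2 h array of slide 9) and by 1.34 in ftz (-0.91 ± 0.17, adjusted p = 0.00588). The transcripts CG11700, CG42565 and CG7011 fell in wild type, by 1.02, 0.87 and 0.84, and were not called in ftz (-0.03, 0.07 and 0.11). With the run of slides as a block none of these 3 was called in wild type, and CG42565, at -0.09, -1.20 and -0.26 on the 3 h arrays, was not called in the fit on the 6 arrays.

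In arrays labelled eve the step looked different. Its correlation with the wild type step was r = 0.177, and 2932 features (23.6%) were called, 1621 higher (13%) and 1311 lower (10.6%). Of the 677 wild type rises 432 (63.8%) had the same sign in eve, with 159 called higher and 56 called lower. Of the 839 falls 565 (67.3%) had the same sign, with 174 called lower and 59 called higher. Of the 34 rises of at least 2-fold, 27 had the same sign in eve, 16 were called higher (47.1%) and 2 lower. Of the 125 falls of at least 2-fold, 97 had the same sign, 49 were called lower (39.2%) and 2 higher. The difference between wild type and eve steps was called for 1971 features (15.9%), 905 positive (7.28%) and 1066 negative (8.58%). halo, which fell in wild type and ftz, rose in eve from -0.09 ± 0.11 (SD, n = 3) to 1.09 ± 0.05 (difference of steps -3.05 ± 0.32 SE, adjusted p = 1.36e-09). Elba2 was -0.23 ± 0.09 at 2 h and 0.05 ± 0.12 at 3 h in eve. term and Sry-alpha fell in eve as well, by 1.62 and 1.25. The eve transcript itself was -1.20 ± 0.14 at 2 h and 0.17 ± 0.19 at 3 h in arrays labelled eve, against 0.51 ± 0.18 and -0.04 ± 0.14 in wild type, so at 3 h the arrays labelled eve were not below wild type. The eve arrays of the times came from slides 59 to 61 and 94 to 96, so that slide and time cannot be told apart there.

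**Figure D5:**
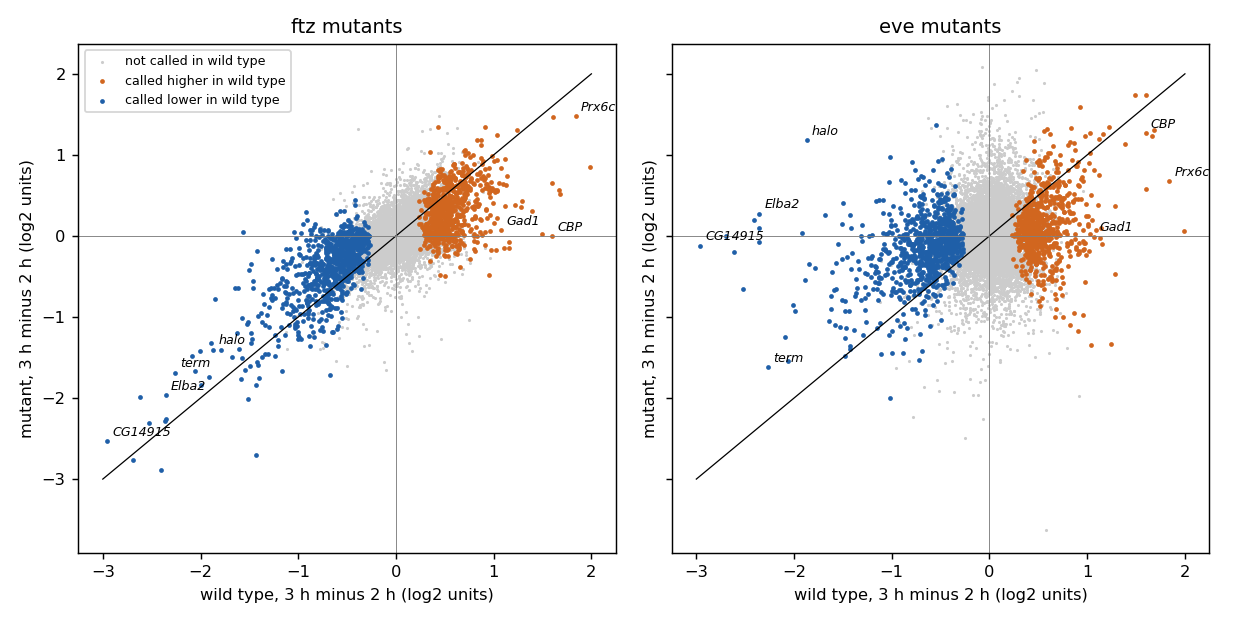
Step from 2 h to 3 h in ftz mutants (left) and eve mutants (right) against the wild type step, each point 1 of 12424 features, with the line of equal steps and wild type calls in colour. The ftz steps correlate with the wild type steps (r = 0.636), but for wild type calls they were smaller. Median rises were 0.313 in ftz against 0.522 and median falls -0.335 against -0.615, for features chosen by their wild type step. The eve points spread around 0 (r = 0.177), with halo on opposite sides in eve and wild type.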

How the data were processed

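The authors deposited 1 table of log ratios, read here as log2, with 1 column per array, 20000 rows and 13228 rows with values. Base and side of the ratio are not stated; sample over reference is likely, since blastoderm genes were high at 2 h and low at 10 h. Limma is the 1 tool named, without a version, per the submitters' processing notes; background correction is not given in the sources used here. All arrays held the same sorted values to within 0.000784, so they had been quantile normalized: a change in total mRNA cannot be seen, and levels of different genes were not compared.

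Rows of 1 symbol in the platform annotation were averaged per array (12424 features; 9292 named genes). All 63 arrays entered 1 model of 21 group means in limma 3.58.1 (R 4.3.3), with empirical Bayes moderation, 2-sided tests and Benjamini-Hochberg adjustment over all features, threshold 0.05. Further contrasts were the wild type step minus the ftz or eve step. The model was checked on simulated data with known changes. Of changes of 0.5 log2 units it recovered 49% for the wild type step and 18% for the difference from the ftz step. Of changes of 1 log2 unit it recovered 99% and 81%.

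Members, gene lists (27) and the named-gene rule were chosen with earlier results of these data known. The rule took the 15 largest called non-overlapping changes each way, members of patterning and maternal lists, up to 5 called members of other lists, and the 5 largest step differences each way per mutant; any other gene, such as an uncalled member of another list or a member of an added family, was chosen after its values were seen. List members without a row were not analysed here. Replicate numbers did not pair arrays (r = -0.0091, 0.0048 and -0.045 between deviations of same-numbered arrays). Alternatives covered array choice, slides, scaling, moderation, rows, filter and thresholds. A planned promoter motif search was not run, as no promoter sequences were used here.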

Additional observations from a re-analysis of the deposited data

Results flagged for a closer look

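The step from 2 h to 3 h was tested for a difference between wild type and each mutant, and 51 features differed between wild type and ftz and 1971 between wild type and eve. Values below are the wild type step minus the mutant step in log2 units (adjusted p under 0.05 in the limma model), so that a positive value means a greater rise or a smaller fall in wild type. Groups of 3 arrays were not searched for single outlying arrays.

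Against ftz the largest named differences were Cals at 1.79, CBP at 1.60, LysE at 1.55, Taf3 at 1.23 (1.225) and Gad1 at 1.004, and in the other direction iPLA2-VIA at -1.03, CG11700 at -0.99, CG42565 at -0.95, CG7011 at -0.95 and Gss1 at -0.91. For Taf3 and LysE the change was in ftz, which fell by 1.004 and 1.65 where wild type differed by 0.22 and -0.10 without a call.

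Against eve, on the negative side, the blastoderm and cellularization genes halo, Elba2, Elba3, bnk and insv differed by -3.05, -2.63, -2.46, -1.95 and -0.89. Genes on none of the lists were CG14915 at -2.84, STUB1 at -2.41, CG15876 at -2.28, CG13000 at -1.94 and bard at -1.88. Axis and segmentation genes followed with eve at -1.91, zen at -1.52, prd at -1.03, ftz at -0.95, tld at -0.87, cta at -0.82 and ea at -0.72. Edc3 was at -1.66, Prosalpha4 at -1.51, Dronc at -1.17, Lsp2 at -1.09, CG7011 at -1.09, ScsbetaA at -0.87, ATPsynC at -0.87, Prosalpha7 at -0.84, Fbp1 at -0.77 and CG42565 at -0.65.

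On the positive side CG10591 stood at 4.21, EAChm at 2.57, frac at 2.38, exu at 2.25, the cuticle gene Lcp65Ag2 at 2.19 and osk at 1.59. CG10591 was 0.69 at 2 h and -2.93 at 3 h in eve, with wild type at -2.76 and -2.18. Mcm3 was at 1.23 (1.225), Prx6c at 1.16, tsh at 1.13, Gad1 at 1.08, CadN at 1.02, CG11700 at 0.98, noc at 0.85, GATAe at 0.80, iPLA2-VIA at 0.77, PolA1 at 0.75, Not3 at 0.72 and Upf1 at 0.62. In eve the arrays of 2 h and 3 h lay in separate runs of slide numbers, and what part this has in these differences was not tested.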

How the results depend on the processing

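The number of features called for the step, 1516, stayed within 1.5 times under the fit on the 6 arrays (1860) or on 18 arrays (2212), cyclic loess (1433), trend and robust moderation (1524), other handling of rows (1492 and 1605), the variance filter (1215) and, chosen after seeing the data, a fit without eve arrays (1358). It was 596 with the slide run as a block, 452 within slides 6 to 9 (fewer arrays), 2616 with array weights, 294 for changes tested against 1.2-fold and 840 at an adjusted p of 0.01. Centring used ribosomal protein genes, which were not called, and proteasome genes, many of which fell. It moved the median of all features from 0.0178 to 0.485 and called 8328, 98.2% of them higher against 44.7%. Leaving out 1 array gave 1012 to 1282 calls. With the replicate block the count was 1437, and the numbers do not pair the arrays; for the ftz difference the replicate block gave 2 calls against 51, and for eve 1942 against 1971, of which 1467 were shared. Leaving out 1 wild type array gave 29 to 66 for ftz, with 29 without either 2 h array of slides 70 and 71, and 1500 to 1851 for eve. For eve cyclic loess gave 1884, 35.1% of them higher against 45.9%. Of 98 called genes named here 54 remained called within slides 6 to 9, 64 with slides as a block, 89 under cyclic loess and 72 under centring; Fbp1 alone changed sign, to 0.071 under centring (adjusted p = 0.719). The median SE of a step was 0.138, and that limits which small differences could be called. For maternal genes the fit on the 6 arrays called 13 lower against 8.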
